A study of Mus musculus with 16 samples.

Results

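Cux1, Cux2, Rasgrf2, Rorb, Pou3f2, Pou3f3, Lmo4 and Mdga1, a named set of genes of layer 2 to 4 cortical projection neurons, were followed in the medial prefrontal cortex (mPFC) of adult male mice. The rule lists the genes by name and applies no threshold to a measured value, although earlier results of these data were known when it was written. Its symbols were matched to the Ensembl identifiers of the expression table, and all 8 were found among the 18424 genes of the table. On a C57BL/6N background, mice had 2 intact copies of Arid1b (wild type, WT) or 1 copy that was cut short by CRISPR editing at exon 5 (heterozygous, HT), and the gene encodes a DNA-binding part of the SWI/SNF machinery that remodels chromatin. From postnatal day 3 to 21 their dams drank water with 0.2% saccharin alone (Veh) or with fluoxetine, a selective serotonin reuptake inhibitor, at 0.1 mg per ml (Flx), so that the pups received the drug through milk and the dams of all groups had saccharin. Tissue was taken at postnatal day 120, long after the drug, from 4 mice in each of 4 groups, which are vehicle and fluoxetine mice of both genotypes (WT-Veh and HT-Veh, WT-Flx and HT-Flx). The Arid1b change is in the germline and is therefore present in all cells. The litter of each mouse is not given in the sources used here, and p-values measure the spread between these mice, some of which may share a dam. All values are DESeq2-normalized read counts, that is, estimated reads per gene divided by the authors' normalization factors, and the sequencing depth behind them is unknown.

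The cerebral cortex is built in layers, and neurons of the upper layers connect mainly to other cortical areas, many of them across the corpus callosum, while deep-layer neurons send axons out of the cortex as well. Upper-layer identity is set during development by transcription factors. CUX1 and CUX2 are homeodomain proteins of the CUT class with roles in the dendrites and synapses of these neurons, POU3F2 (BRN2) and POU3F3 (BRN1) are closely related POU factors required for the production and migration of upper-layer neurons, and RORB is a nuclear receptor that marks and patterns layer 4. LMO4 is a LIM-only protein that acts as a cofactor of transcription factors and takes part in the areal patterning of the cortex. The other members are not transcription factors: RASGRF2 is a calcium-responsive exchange factor that activates Ras and Rac, used as a marker of layer 2/3, and MDGA1 is a membrane-anchored immunoglobulin-family adhesion protein of upper-layer neurons that binds neuroligins.

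The upstream sequences of Rasgrf2, the member with the largest fitted log2 change between genotypes over both treatments, and of the related pair Pou3f2 and Pou3f3, which are each encoded by a gene with 1 annotated transcript, are printed here to place the genes. They are the 250 bases before the RefSeq start on the transcribed strand (GRCm38.p6), at chr13:92131829-92132078 for Rasgrf2 (minus strand), chr4:22488367-22488616 for Pou3f2 (minus strand) and chr1:42695518-42695767 for Pou3f3 (plus strand). No GENCODE gene overlapped the windows of Rasgrf2 and Pou3f2, and that of Pou3f3 lay within AC122898.1, a transcript annotated on the same strand. Capitals mark every match, on either strand, of CANNTG (the E-box core), GGGCGG (a GC box), CCAAT or TATAAA.
Rasgrf2: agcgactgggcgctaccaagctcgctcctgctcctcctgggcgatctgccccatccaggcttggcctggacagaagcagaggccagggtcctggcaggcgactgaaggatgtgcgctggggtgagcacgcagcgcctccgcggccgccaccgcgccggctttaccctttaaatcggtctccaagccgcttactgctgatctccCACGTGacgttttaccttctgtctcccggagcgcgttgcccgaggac
Pou3f2: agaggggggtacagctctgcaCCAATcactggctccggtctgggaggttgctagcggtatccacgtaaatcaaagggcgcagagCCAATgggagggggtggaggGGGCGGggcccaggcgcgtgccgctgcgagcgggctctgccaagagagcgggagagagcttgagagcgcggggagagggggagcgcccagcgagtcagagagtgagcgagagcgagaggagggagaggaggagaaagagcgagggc
Pou3f3: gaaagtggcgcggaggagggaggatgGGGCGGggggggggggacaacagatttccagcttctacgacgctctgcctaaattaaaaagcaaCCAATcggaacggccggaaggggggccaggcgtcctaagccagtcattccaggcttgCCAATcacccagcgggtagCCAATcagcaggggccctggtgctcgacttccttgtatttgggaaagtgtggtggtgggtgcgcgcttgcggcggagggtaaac
Rasgrf2 had 1 match, of CANNTG, and none of the other letters. Pou3f2 had 2 CCAAT and 1 GGGCGG, and Pou3f3 had 3 CCAAT and 1 GGGCGG, with no CANNTG in either window. Of 32851 windows of the same length at RefSeq starts, 66.2% held CANNTG, 32.7% GGGCGG, 33.8% CCAAT and 12.4% TATAAA, so the matches are common ones. They describe letters and not occupied sites.

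On GRCm38 (GENCODE) the other members lie on chromosome 5 (Cux1, ENSMUSG00000029705, 136248135 to 136567490, and Cux2, ENSMUSG00000042589, 121856366 to 122050102), chromosome 19 (Rorb, ENSMUSG00000036192, 18930605 to 19111196), chromosome 3 (Lmo4, ENSMUSG00000028266, 144188530 to 144205220) and chromosome 17 (Mdga1, ENSMUSG00000043557, 29827949 to 29970087). Mdga1 is the member that shares a chromosome with Arid1b. Pou3f2 (ENSMUSG00000095139) is on chromosome 4 from 22482780 to 22488366, Pou3f3 (ENSMUSG00000045515) on chromosome 1 from 42695768 to 42703176 and Rasgrf2 (ENSMUSG00000021708) on chromosome 13 from 91880400 to 92131656. All are protein-coding, and all but Pou3f3 are on the minus strand. Transcript sequences of the members are nearly unique. At most 1.83% of the 31-base words of a member (Pou3f2) occurred in transcripts of any other gene, and neither Cux1 and Cux2 nor Pou3f2 and Pou3f3 shared a word with each other. Cux1, Pou3f3 and Lmo4 are overlapped on their own strand by annotated noncoding genes. Of their 31-base words, 0.70% (Cux1), 0.92% (Pou3f3) and 0% (Lmo4) occurred in transcripts of any other gene. How far reads of the overlapping genes enter the counts was not tested.

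The tissue was checked before the members were compared. Slc17a7, the vesicular glutamate transporter of cortical excitatory neurons, had group means between 36556 and 41201 normalized reads. Arid1b had a mean of 75.8% of WT in HT mice and passed no adjusted threshold (genotype over both treatments, log2 change -0.39, SE 0.082, adjusted p = 0.124). Some libraries carried markers of the olfactory bulb, which lies directly in front of the mPFC. Eomes, a transcription factor of bulb projection neurons, was at 899 in WT-Veh 1, at 149, 318 and 857 in WT-Flx 1, 2 and 4, and at 240.1 in HT-Veh 4, against 25.3 or less in the other 11 libraries. The summed level of 8 bulb markers ran from 254 to 10287 in WT-Veh and from 410.3 to 7796 in WT-Flx, but from 269 to 2964 in HT-Veh and from 226 to 354 in HT-Flx, and none of the 8 was listed at 0 throughout a group. The 5 libraries with Eomes at 100 or more are therefore unevenly spread over the groups, with 4 in WT and 1 in HT. The genotype change of each member over both treatments is given with and without them. Without them, WT-Flx 3 is the only mouse left of WT-Flx and stands for that group in the fit. Because the samples are bulk tissue, fewer upper-layer neurons in a sample and less of a transcript in each neuron cannot be told apart.

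All 8 members were well expressed in every library, and no member was lost to the filter on low values (10 or more in 4 or more samples of a fit). Per kilobase of annotated exon, Lmo4 had the highest mean level over the 16 mice, at 2049 normalized reads per kb. It was followed by Rasgrf2 at 732, Cux2 at 473 and Pou3f3 at 439.8, then by Pou3f2 at 213, Rorb at 148 and Cux1 at 144, and Mdga1 was lowest at 51.2. These levels use the joined exons of all annotated transcripts, of which Cux1 has 14 over 20.02 kb, and so understate genes that use few of their exons. The members differed widely in how much they varied between mice. The coefficient of variation of the normalized count over all 16 mice was 56.8% for Mdga1, 22.5% for Rasgrf2 and 19.9% for Cux2, and lay between 7.38% (Cux1) and 13.0% (Pou3f2) for the other 5.

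**Figure D1:**
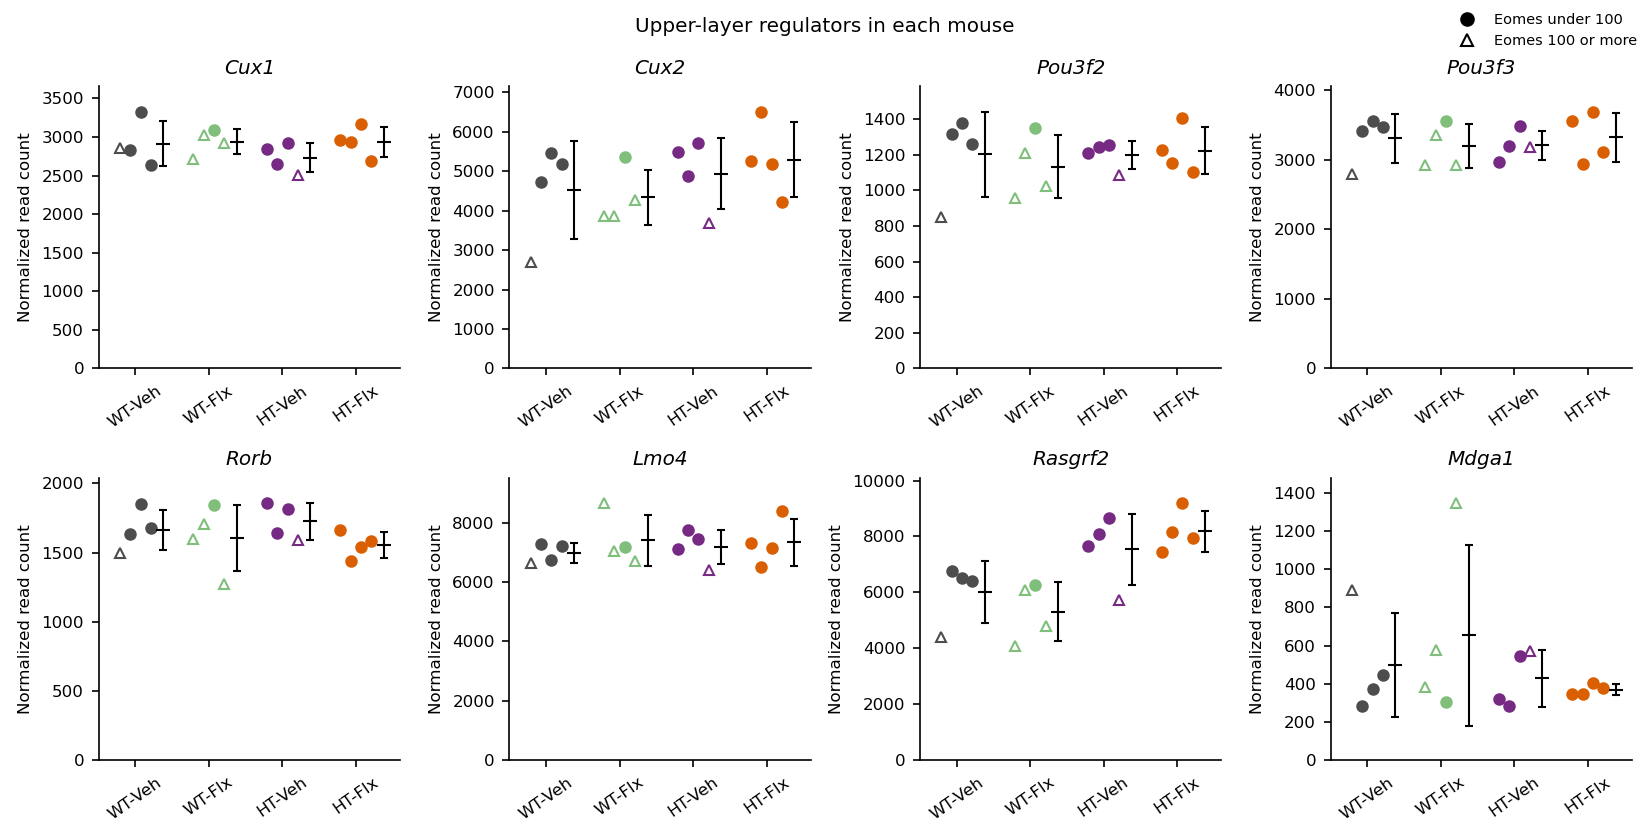
Normalized read count of each of the 8 genes (vertical axis, from 0) in every mouse of the 4 groups, with the group mean and SD (n = 4) to the right of the points. Open triangles are the 5 libraries with Eomes at 100 or more. Rasgrf2 lies at 7455 to 9189 in HT-Flx and at 4082 to 6273 in WT-Flx. The highest Mdga1 values, from 569 to 1347, are triangles. HT-Veh 3, at 545, is not a triangle, and the triangle of WT-Flx 1 is at 382.

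Rasgrf2 had the largest fitted log2 change between genotypes of the 8. By the ratio of the HT to the WT mean Mdga1 differed more, with HT at 69.3% of WT beside 139% for Rasgrf2, but with a wider spread between mice. The normalized count of Rasgrf2 was 4384, 6755, 6528 and 6393 in WT-Veh 1 to 4 and 4082, 6084, 6273 and 4789 in WT-Flx 1 to 4. In HT-Veh 1 to 4 it was 7667, 8079.6, 8669 and 5709, and in HT-Flx 1 to 4 it was 7455, 8147, 9189 and 7932. The lowest values of WT-Veh and HT-Veh belonged to the mice with bulb markers, and without those 2 mice the vehicle groups, now 3 against 3, did not overlap. The same held for 2 of the 8 members (Rasgrf2 and Pou3f2) and for 16.3% of 16508 genes, so little can be read from it. The means ± SD (n = 4) were 6015 ± 1098 in WT-Veh and 5307 ± 1049.6 in WT-Flx, against 7531 ± 1283 in HT-Veh and 8181 ± 732 in HT-Flx. Over both treatments HT had 139% of the WT mean. In order of the means, HT-Flx stood first, then HT-Veh, WT-Veh and WT-Flx, and each group overlapped its neighbour in this order.

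With vehicle, the HT minus WT difference of Rasgrf2 was 0.33 on the log2 scale (SE 0.16, 95% interval -0.029 to 0.68, adjusted p = 0.922). After fluoxetine the difference was 0.64 (SE 0.13, interval 0.35 to 0.93, adjusted p = 0.289), and all 4 HT-Flx mice lay above all 4 WT-Flx mice. Rasgrf2 ranked 25 of 16788 genes by p in that comparison. Over both treatments, the HT minus WT change was 0.48 (SE 0.11, interval 0.25 to 0.72, adjusted p = 0.158), which ranked 50 of 17567 genes. No Rasgrf2 change passed the threshold of 0.05 after adjustment over all genes in these fits. Markers of other tissues and cells moved with the same contrast, the bulb markers most. Their median change was -2.69 (log2) in HT-Flx versus WT-Flx, with 0 of 7 tested markers higher in HT-Flx. Each of the 5 libraries with bulb markers had a lower Rasgrf2 value than the mice of its group without them, at 65.1% to 97.0% of their mean. For WT-Flx that mean is WT-Flx 3 alone, and both ends of the range are from WT-Flx. The 7 striatal markers had a median of -0.41 with 0 positive, and their summed level ran from 6694 to 12513 in WT-Flx and from 4804 to 10018 in HT-Flx. The 6 oligodendrocyte markers had a median of -0.20 with 0 positive, and the 15 deep-layer genes a median of -0.14 with 4 positive. In the other direction, the 5 general markers of forebrain glutamatergic neurons had a median of 0.24 with 4 positive. The 6 GABAergic markers were at -0.098, and the astrocyte, microglia and endothelial lists at 0.017, 0.11 and 0.030. The part of the cell type and striatal lists in the Rasgrf2 difference was not tested. In the 11 libraries with Eomes under 100, Rasgrf2 ran from 6273 to 6755 in 4 WT mice and from 7455 to 9189 in 7 HT mice. These ranges did not overlap, where 1.4% of 17118 genes had no overlap in either direction. The treatments were mixed unequally here, since WT-Flx 3 was the only fluoxetine mouse among the WT mice. In a fit of those 11 libraries the genotype change was 0.34 (SE 0.065, adjusted p = 0.196), beside medians of -0.35 for the oligodendrocyte, -0.18 for the striatal and -0.34 for the 5 tested bulb markers, and with the bulb marker level as a covariate in all 16 it was 0.30 (adjusted p = 0.398). The direction of the genotype change of Rasgrf2 was thus kept without the libraries that carried bulb markers, at a smaller size and with WT-Flx 3 alone for WT-Flx.

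**Figure D2:**
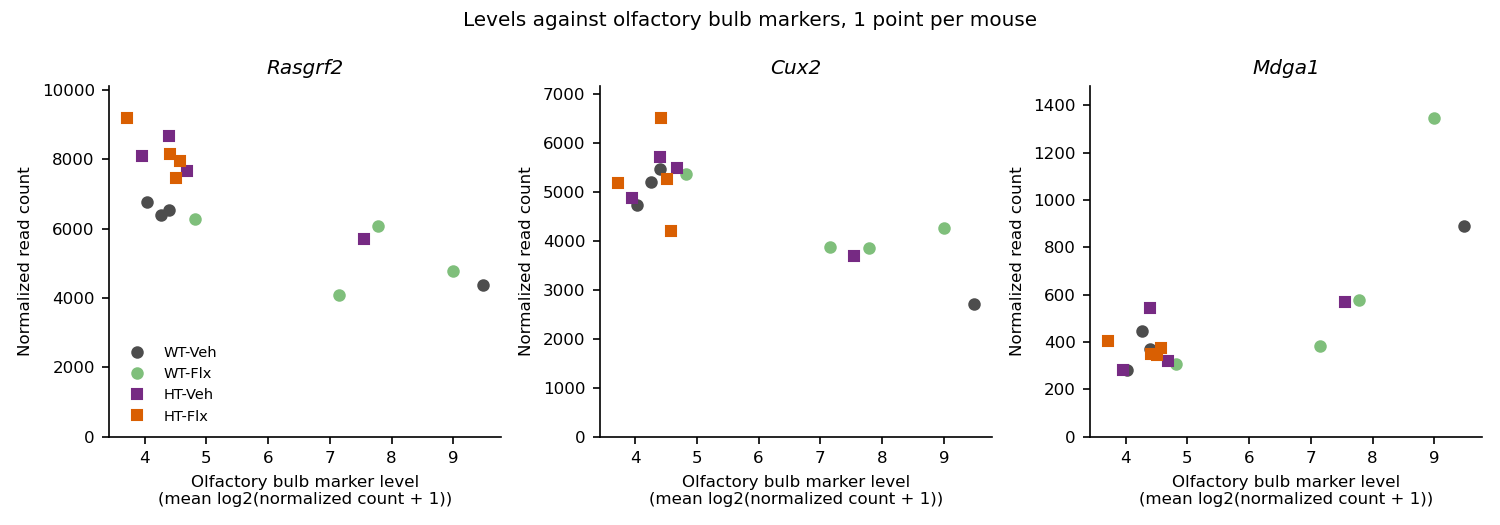
Normalized read counts of Rasgrf2, Cux2 and Mdga1 (vertical axes, from 0) against the mean log2(normalized count + 1) of 8 olfactory bulb markers (horizontal axis), 1 point per mouse, circles for WT and squares for HT. At low marker levels the 7 HT squares of Rasgrf2 lie above the 4 WT circles. The 5 mice to the right have lower Cux2 and higher Mdga1 than the other mice of their own group. Across groups the values overlap. Mdga1 is at 382 in WT-Flx 1, to the right, and at 448 in WT-Veh 4, to the left. Cux2 is at 4257 in WT-Flx 4, to the right, and at 4207 in HT-Flx 4, to the left.

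Cux2, the upper-layer homeodomain factor, followed Rasgrf2 only in part. Its normalized count was 2701, 4718, 5466 and 5189 in WT-Veh 1 to 4 and 3863, 3857, 5353 and 4257 in WT-Flx 1 to 4. In HT-Veh 1 to 4 it was 5483, 4879, 5716 and 3679.5, and in HT-Flx 1 to 4 it was 5263, 6507, 5187 and 4207. The groups overlapped throughout, and the 5 libraries with bulb markers held the lowest values of their groups, at 52.7% to 79.5% of the mean of the other mice. Group means were 5291 ± 942 in HT-Flx, 4939 ± 911 in HT-Veh, 4519 ± 1250.3 in WT-Veh and 4332 ± 706 in WT-Flx (SD, n = 4), in the same order as for Rasgrf2. The genotype change of Cux2 was 0.16 with vehicle (SE 0.22, adjusted p = 0.930), 0.28 after fluoxetine (SE 0.14, adjusted p = 0.497) and 0.22 over both (SE 0.14, interval -0.072 to 0.52, adjusted p = 0.519). In the 11 libraries with Eomes under 100 the last value was 0.015 (SE 0.11), with Cux2 between 4718 and 5466 in WT and between 4207 and 6507 in HT. Unlike that of Rasgrf2, the Cux2 difference was thus near 0 without the mice with bulb markers.

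Cux1, the paralog of Cux2, varied least of the members. It ran from 2633 to 3327 in WT-Veh and 2506 to 2923 in HT-Veh, and from 2719.7 to 3085 in WT-Flx and 2687 to 3162 in HT-Flx. All 4 ranges overlapped, and the highest group mean (WT-Flx, 2938 ± 161) was 1.08 times the lowest (HT-Veh, 2729.6 ± 188). The change over both treatments was -0.047 (SE 0.058, interval -0.17 to 0.075), and -0.066 (SE 0.076) in the 11 libraries with Eomes under 100.

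The POU factors did not separate the groups either. Pou3f2 was at 849, 1318, 1381 and 1262 in WT-Veh 1 to 4 and at 957, 1208, 1349.6 and 1024 in WT-Flx 1 to 4, and ran from 1088 to 1258 in HT-Veh and from 1106 to 1407 in HT-Flx. Pou3f3 ran from 2791 to 3552 in WT-Veh and 2962 to 3483 in HT-Veh, and from 2928 to 3565 in WT-Flx and 2934 to 3692 in HT-Flx. In both genes the lowest of the 16 values was in WT-Veh 1, the library with the highest bulb marker level, and the highest was in HT-Flx 3, the one with the lowest. Both genes had the same order of group means, HT-Flx, WT-Veh, HT-Veh and WT-Flx, with overlap between every pair of groups. The genotype change over both treatments was 0.067 for Pou3f2 (SE 0.099, interval -0.14 to 0.28) and 0.0071 for Pou3f3 (SE 0.069, interval -0.14 to 0.15). In the 11 libraries with Eomes under 100 these values were -0.12 (SE 0.075) and -0.11 (SE 0.076), so the sign depended on the libraries used.

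Rorb, the layer 4 receptor, was at 1498, 1631, 1850.3 and 1679 in WT-Veh 1 to 4 and at 1597, 1708, 1841 and 1275 in WT-Flx 1 to 4. In HT-Veh 1 to 4 it was at 1856, 1641, 1818 and 1588, and in HT-Flx 1 to 4 at 1663, 1441, 1539 and 1583. Its lowest value belonged to WT-Flx 4, again a library with bulb markers, and the 4 groups overlapped. The genotype change over both treatments was 0.0099 (SE 0.073, interval -0.14 to 0.16), and it was negative in the 11 libraries with Eomes under 100 (-0.10, SE 0.068). Lmo4 ran from 6636 to 7295 in WT-Veh and 6418 to 7751 in HT-Veh, and from 6732 to 8668 in WT-Flx and 6507 to 8394 in HT-Flx, with overlap between every pair of groups. Its genotype change over both treatments was 0.013 (SE 0.065, interval -0.12 to 0.15), and 0.046 (SE 0.070) in those 11 libraries. The signs of these small changes were not stable, and that of Lmo4 turned under quantile normalization (-0.041).

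Mdga1 behaved unlike the other members. Its normalized count was 892, 281, 372 and 448 in WT-Veh 1 to 4 and 382, 579, 306 and 1347 in WT-Flx 1 to 4. In HT-Veh 1 to 4 it was 319, 283, 545 and 569, and in HT-Flx 1 to 4 it was 346, 347, 406 and 377. The highest value of each of the groups WT-Veh, WT-Flx and HT-Veh belonged to a mouse with bulb markers, and all 5 such libraries lay above the other mice of their group, at 125% to 441% of the mean of those mice. HT-Veh 3, at 545, was high without bulb markers. Mdga1 was the member with the opposite relation to the bulb markers, since Cux2, Rasgrf2, Rorb and Pou3f2 were lower in all 5 of these libraries than in every other mouse of the group. WT-Flx held a single mouse for this comparison, WT-Flx 3. The genotype change of Mdga1 was -0.14 with vehicle (SE 0.35, adjusted p = 0.963), -0.58 after fluoxetine (SE 0.35, adjusted p = 0.569) and -0.36 over both (SE 0.27, adjusted p = 0.590). It was 0.15 (SE 0.18) in the 11 libraries with Eomes under 100, and thus the sign turned when the bulb-rich mice were left out.

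**Figure D3:**
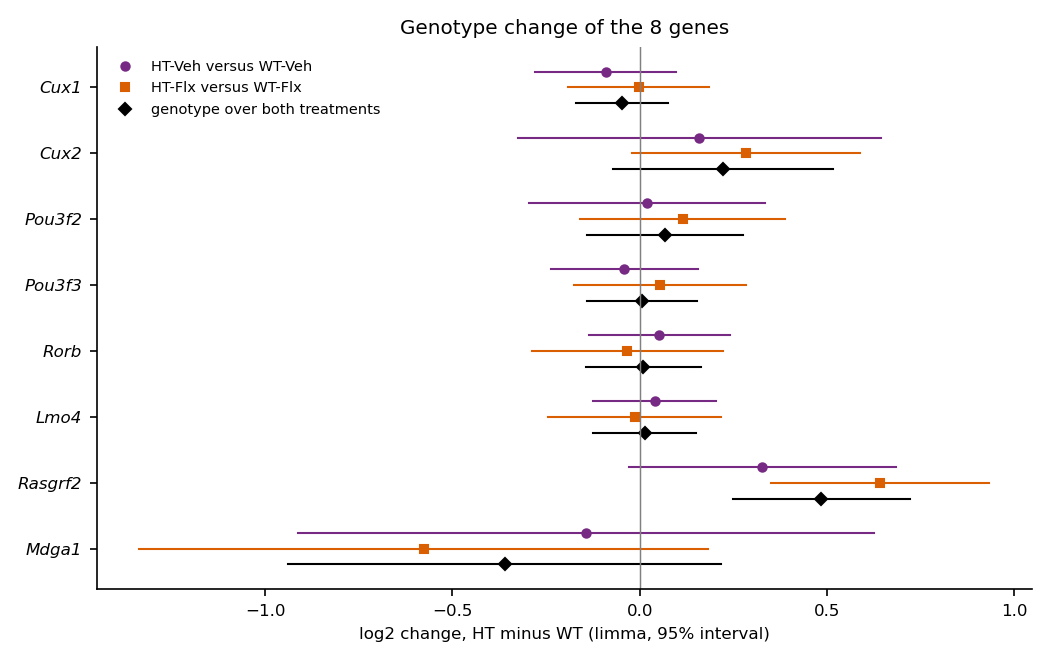
HT minus WT change of the 8 genes on the log2 scale (horizontal axis) with vehicle, after fluoxetine and over both treatments, as limma estimates with 95% intervals. The Rasgrf2 intervals after fluoxetine (0.35 to 0.93) and over both treatments (0.25 to 0.72) do not reach 0, and those of the other 7 genes include 0.

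As a set, the members gave no call in any of the 6 comparisons (limma, adjusted p under 0.05 over all genes). With vehicle, 0 of 8 passed for genotype, where 0.0178% of 16832 genes did, and 0 of 8 had groups without overlap, against 3.84% of all genes. The changes of the members other than Rasgrf2, Cux2 and Mdga1 lay between -0.091 (Cux1) and 0.053 (Rorb), and the median of the 8 was 0.030 beside 0.0062 for all genes. After fluoxetine, 0 of 8 passed for genotype against 0.0417% of 16788 genes, and 1 of 8, Rasgrf2, had groups without overlap against 5.83%. Here the other members lay between -0.033 (Rorb) and 0.11 (Pou3f2), with a median of 0.026 for the 8 and 0.0081 for all genes. Over both treatments 0 of 8 passed against 0.0569% of 17567 genes, and the medians were 0.012 for the members and 0.0044 for all genes. At an unadjusted p under 0.05 there was 1 member, Rasgrf2, in each of the last 2 comparisons and none with vehicle, while 10.4%, 11.7% and 4.88% of all genes were past it after fluoxetine, over both treatments and with vehicle.

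To see whether early fluoxetine left a trace in these genes in adults, drug and vehicle mice were compared within each genotype. In HT mice 0 of 8 members passed, where 0% of 16814 genes did, and 0 of 8 had groups without overlap against 1.99% of all genes. The changes ran from -0.15 for Mdga1 (SE 0.21) and -0.15 for Rorb (SE 0.077) to 0.10 for Cux1 (SE 0.074) and 0.13 for Rasgrf2 (SE 0.12, interval -0.12 to 0.39). Rorb lay at 1588 to 1856 in HT-Veh and at 1441 to 1663 in HT-Flx, which overlapped. In WT mice 0 of 8 passed, where 0% of 16833 genes did, and 0 of 8 had groups without overlap against 2.89%. The changes ran from -0.18 for Rasgrf2 (SE 0.17) to 0.081 for Lmo4 (SE 0.094) and 0.28 for Mdga1 (SE 0.46). Rasgrf2 was thus higher with the drug in the HT means and lower in the WT means, but the difference between these changes, tested as the interaction, was 0.31 (SE 0.22, interval -0.16 to 0.79, adjusted p = 0.998), and the mice with bulb markers make up 3 of the 4 WT-Flx mice. Without the 5 libraries it was 0.069, a value that rests on a single WT-Flx mouse. The interaction of Mdga1 was -0.43 (SE 0.55). For the interaction 0 of 8 members passed, where 0% of 17567 genes did. At an unadjusted p under 0.05 there were 0 of 8 members in these 3 comparisons, beside 516, 707 and 754 genes of the whole table.

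The 19 other upper-layer genes, a list of layer markers and factors without the 8 members that was also drawn up with earlier results of these data known, were set beside them. The counts and medians of this list are therefore a description. The values of all genes beside them are no test of it and give it no independent support. Over both treatments 2 of the 19 rose in HT and 0 fell, where 0.0569% of 17567 genes passed in either direction. A positive change was found in 14, where 51.1% of all genes were positive, with a median of 0.18 (log2) beside 0.0044 for all genes. The risen genes were Otof, which encodes otoferlin, a calcium sensor of vesicle release known from inner hair cells, and Wfs1, which encodes wolframin, a membrane protein of the endoplasmic reticulum. Otof was at 655, 938, 881 and 969.9 in WT-Veh 1 to 4 and at 909, 962, 1142 and 925 in WT-Flx 1 to 4. It was at 1416, 1769, 1582 and 1163 in HT-Veh 1 to 4 and at 1576, 1438, 1869 and 1543 in HT-Flx 1 to 4. The share of all genes that parted the 8 HT from the 8 WT mice was not counted. Otof did so narrowly, at 1142 in WT-Flx 3 and 1163 in HT-Veh 4, a library with bulb markers. Its change was 0.74 (SE 0.098, adjusted p = 0.0117), and 0.63 (adjusted p = 0.0306) in the 11 libraries with Eomes under 100. Wfs1 ran from 2506 to 2721 in WT-Veh and 3123 to 4350.4 in HT-Veh, and from 2804 to 3417 in WT-Flx and 3606 to 5514 in HT-Flx. Its change was 0.50 (SE 0.086, adjusted p = 0.0401), a call that was lost in 14 of 24 alternatives, among them the fit of the 11 libraries (0.59, adjusted p = 0.142).

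With vehicle, 1 of the 19 passed, where 0.0178% of 16832 genes did. Rspo1, which encodes R-spondin 1, a secreted enhancer of Wnt signalling, fell to 106, 127, 107 and 129.6 in HT-Veh 1 to 4 from 248, 303, 306 and 279 in WT-Veh 1 to 4 (log2 change -1.27, SE 0.13, adjusted p = 0.0229). The call was lost in 8 of 16 alternatives, with a highest adjusted p of 0.548 when all 4 groups entered the fit, while the change stayed between -1.38 and -1.22. In this comparison 13 of the 19 had a positive change with a median of 0.14, where 51.8% of all genes were positive. Groups without overlap, in either direction, were found in 7 of the 19, against the 3.84% of all genes given above. These 7 include falls, such as that of Rspo1, as well as rises. After fluoxetine the genotype comparison gave 0 calls among the 19, with 14 positive and a median of 0.20, and neither the drug comparisons nor the interaction gave a call. The 15 deep-layer genes had a median of -0.072 over both treatments with 4 positive, 0.0052 with vehicle with 8 positive, and -0.045 with 6 positive over both treatments without the 5 libraries with bulb markers, and 0 passed. The 5 general markers of forebrain glutamatergic neurons had a median of 0.071 over both treatments and 0.042 without the 5 libraries, with 0 calls. The 6 GABAergic markers were at -0.17 with 0 positive and at -0.071 with 2 positive, again with 0 calls. Without the 5 libraries with bulb markers, the median of the 19 was 0.053 with 13 positive, and that of the 8 members was -0.025. Neither difference between lists was tested.

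**Figure D4:**
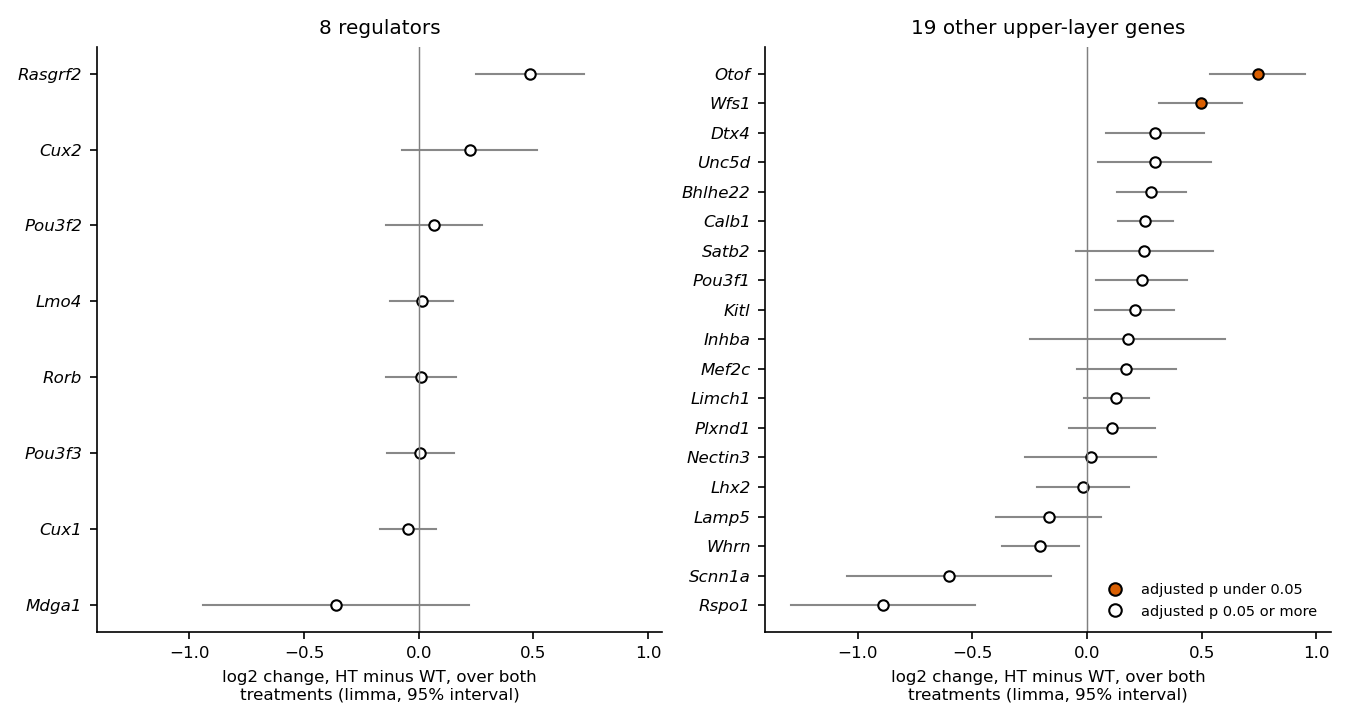
HT minus WT change over both treatments (log2, horizontal axis, limma estimate with 95% interval) of the 8 genes (left) and of 19 other upper-layer genes (right), ordered by size. Filled points passed an adjusted p of 0.05: Otof (0.74) and Wfs1 (0.50), and none of the 8.

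The genes whose pattern over the 16 mice was most like that of the members were named by the correlation of their log2 values with the mean z-score of the 8. They were Ablim1 (r = 0.92), Camk2a (0.92), 1700034H15Rik (0.91), Nfic (0.91) and Shank1 (0.91). With deviations from the group means in place of the values, they were Acsl6 (0.96), Camk2a (0.95), Rims3 (0.94), 1700034H15Rik (0.93) and Ablim1 (0.93). Among the members themselves, Pou3f2 (0.91) and Pou3f3 (0.84) were closest to the mean pattern, Lmo4 was nearly unrelated to it (0.15) and Mdga1 ran against it (-0.51). Each member is part of the mean it was set against, which raises its r. The values of members and of other genes are therefore not directly comparable. The mice share the difference in bulb markers, which enters all of these values, and they are given as a description over n = 16 mice.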

How the data were processed

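The authors prepared stranded poly-A libraries from the mPFC of 16 mice, ran Salmon 1.1.0 with GC bias correction on GRCm38 (paired-end reads), and used tximport and DESeq2 1.30.1 for gene summaries and scaling (versions per the submitters' processing notes). The deposited signal is a normalized read count per gene and mouse. It is not whole and depth is unknown, so no counting interval is given. Groups and replicate numbers were taken from sample titles.

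Comparisons were fitted with limma 3.58.1 (R 4.3.3, with trend) on log2(value + 1), which understates changes of low genes. Genes needed 10 or more in 4 or more samples. P-values were two-sided and adjusted over all tested genes (Benjamini-Hochberg, 0.05). Pairwise fits held the compared groups, and the interaction and the genotype change over both treatments held all 16 mice. Fits were tested on simulated data.

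Members and lists were chosen with earlier results of these data known. All 8 members and Arid1b were named, and from other lists genes past the threshold, up to 3 with the smallest p, and the 5 genes most correlated with the members. Alternatives were a pseudocount of 8, no filter, quantile and upper quartile scaling, all 4 groups in the fit, a replicate block, a covariate of 8 bulb markers, leaving out WT-Veh 1 and HT-Veh 4, leaving out each mouse, and, chosen after seeing the data, leaving out the 5 libraries with Eomes at 100 or more and the alternatives of Otof, Wfs1 and Rspo1. Positions are from GENCODE and promoter windows from RefSeq. Shared sequence was counted as identical 31-base words.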

Additional observations from a re-analysis of the deposited data

Results flagged for a closer look

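In 32 group and gene combinations, 4 mice each, the gap between the extreme mouse and its nearest neighbour, divided by the range on the log2 scale, was above the 95% limit of Dixon for 4 samples in 2. Chance gives such a gap in about 1 of 20. Both fell in WT-Veh 1, the library with the highest bulb marker level. It was the lowest WT-Veh mouse for Rasgrf2, at 4384 against 6393 to 6755 (ratio 0.872), and for Pou3f3, at 2791 against 3416 to 3552 (ratio 0.838). The part of bulb tissue in these values was not tested.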

How the results depend on the processing

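No member passed the threshold in any alternative except the replicate block. With the replicate number of the titles as a block, Rasgrf2 passed for genotype over both treatments (log2 change 0.48, adjusted p = 0.042), which moved the count of members from 0 to 1, and the block changed no other call of a member. The call of Rspo1 with vehicle was lost under it (adjusted p = 0.391). Correlations of same-numbered mice ran from -0.23 to 0.31. Differently numbered mice were not set beside them and the litters are unknown, so whether the numbers pair the mice was not tested. The genotype change of Rasgrf2 over both treatments lay between 0.30 (bulb covariate) and 0.55 in all alternatives (highest adjusted p = 0.398), and with vehicle between 0.18 (without WT-Veh 1) and 0.46. After fluoxetine it lay between 0.38 (without the 5 libraries with bulb markers) and 0.73 (without WT-Flx 3, adjusted p = 0.0718).

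Values whose sign turned are listed by setting, and the cause was not tested. For genotype over both treatments, quantile scaling gave -0.0074 for Rorb, -0.027 for Pou3f3 and -0.041 for Lmo4, and upper quartile scaling -0.00022 for Rorb and -0.0031 for Pou3f3. The bulb covariate gave -0.022 for Cux2, -0.077 for both Rorb and Pou3f3, -0.100 for Pou3f2, -0.033 for Lmo4 and 0.12 for Mdga1. Leaving out the 5 libraries with bulb markers gave -0.10 for Rorb, -0.12 for Pou3f2, -0.11 for Pou3f3 and 0.15 for Mdga1, and leaving out WT-Veh 1 and HT-Veh 4 gave -0.031 for Pou3f3. After fluoxetine, the covariate gave -0.17 for Pou3f2 and 0.70 for Mdga1, and leaving out the 5 libraries, which kept 1 WT mouse assumed to vary like HT-Flx, gave -0.034 for Cux2, -0.15 for Pou3f2 and 0.27 for Mdga1. With vehicle, Mdga1 was 0.024 without WT-Veh 1 and HT-Veh 4. For fluoxetine, the covariate gave -0.0057 for Rasgrf2 and 0.00044 for Mdga1 in HT and -0.25 for Mdga1 in WT, where leaving out the 5 libraries gave -0.24. For the interaction of Mdga1 they gave 0.29 and 0.24.

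With each mouse left out in turn, the genotype change over both treatments ran from -0.043 to 0.045 for Rorb, -0.033 to 0.036 for Pou3f3, -0.012 to 0.11 for Pou3f2 and -0.020 to 0.052 for Lmo4. With vehicle it ran from -0.071 (without WT-Veh 1) to 0.29 for Cux2 and from -0.37 to 0.18 for Mdga1, and after fluoxetine from -0.14 to 0.037 for Rorb. The fluoxetine change of Mdga1 ran from -0.33 to 0.0060 in HT and from -0.15 to 0.61 in WT. Otof passed in 24 of 24 alternatives (adjusted p from 0.00069 to 0.0454), while the whole table had 1 to 17 calls for that comparison. WT-Flx 3 was the mouse whose absence moved the calls after fluoxetine most, from 7 to 23 genes. Depth is unknown, so no limit of detection can be given.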
